A study of Mus musculus with 5 samples.

Results

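Matrix metalloproteinases (MMPs) and the tissue inhibitors of metalloproteinases (TIMPs) were examined in tumours and normal epithelium of the mouse intestine. The gene set was the enzymes Mmp2, Mmp7, Mmp9, Mmp10, Mmp13, Mmp14 and Mmp15 and the inhibitors Timp1, Timp2 and Timp3. All probe sets that the array's annotation assigned to these genes were used. They numbered 20 of 22626 non-control probe sets and covered 9 of the 10 genes, among 12393 genes with a probe set of their own. Mmp15, a membrane-anchored MMP, was not analysed here.

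MMPs are zinc-dependent endopeptidases that are made as inactive precursors and cleave matrix proteins, cell surface proteins and other precursors. Most are secreted, and a few, such as Mmp14, are anchored in the plasma membrane. TIMPs bind the active site of MMPs and block them, and Timp2 also takes part in the activation of Mmp2 by Mmp14. In the mouse small intestine Mmp7 is best known as a product of Paneth cells, where it activates antimicrobial alpha-defensins, and Mmp2 and the TIMPs are often products of stromal cells.

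The study hybridised 3 Affymetrix arrays with RNA from intestinal tumours of Apc1638N mice on a C57Bl6/J background (tumours 16, 18 and 2) and 2 with RNA from normal intestinal epithelium (wild types 36 and 62), taken from C57Bl6/J mice with intact Apc. Apc1638N is a germline truncating allele of Apc, which encodes a scaffold protein that restrains Wnt signalling, and carriers develop tumours mainly in the small intestine. All animals were males of 8 months, and laser capture, the cutting of selected areas out of a section, was used to collect the epithelium. Normal epithelium came from wild-type mice only, so the effects of the allele and of tumour formation cannot be told apart. Numbers in the names are those of the labels. Nothing in them says that the samples are from different mice, so the p-values reflect only how far these samples spread, which may be technical.

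Levels below are deposited log2 signals, on which a difference of 1 is a 2-fold difference. Array medians lay between 6.81 and 6.87, so the arrays shared a scale, and the small number of arrays limits the precision. Changes are tumour minus wild type, and p-values are limma's, adjusted over all 22626 probe sets, with a threshold of 0.05. Levels of different probe sets are not comparable with each other.

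The arrays held epithelial marker genes at a high level in both groups. The mean level of 9 measured epithelial markers ran between 11.3 and 11.7 in tumours and between 11.4 and 11.5 in wild types. Among them Krt18 and Krt19, keratins of simple epithelia, rose by 2.44 and 1.20, and Vil1, a bundling protein of microvilli, fell by 1.26 on the log2 scale. Fibroblast markers were measured too, and none of the 12 lay below the 25th percentile on all 5 arrays. Their mean level was 8.28, 9.0 and 7.65 in tumours 16, 18 and 2, against 7.38 and 6.99 in wild types 36 and 62. The difference between 3′ and 5′ probe sets of beta-actin, a measure of RNA integrity, was 4.0 to 4.25 in tumours and 2.51 to 3.32 in wild types. The part of RNA integrity in the results below was not tested.

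Of the 20 probe sets, 2 rose in tumours, 0 fell and 18 did not pass the threshold in limma. Over all probe sets 18.3% passed, 9.58% higher and 8.72% lower, so the share of 2 in 20 (10%) was not above the background. At an unadjusted p under 0.05 in limma there were 5 higher (25%) and 0 lower, against 17.8% higher and 15.7% lower over all probe sets. The 2 probe sets belonged to Mmp7 and Mmp14. The median change of the 20 was 0.44, against 0.0020 over all probe sets. The groups were fully separate in 14 probe sets, 13 with every tumour higher and 1 with every tumour lower. Over all probe sets 47.9% were separate, 25.3% higher and 22.5% lower. With the brightest probe set of each gene, 8 of 9 genes had non-overlapping values, all higher in tumours, and Mmp9 was the exception. The share over the brightest probe sets of all genes was not computed, so this count has no like background.

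**Figure D1:**
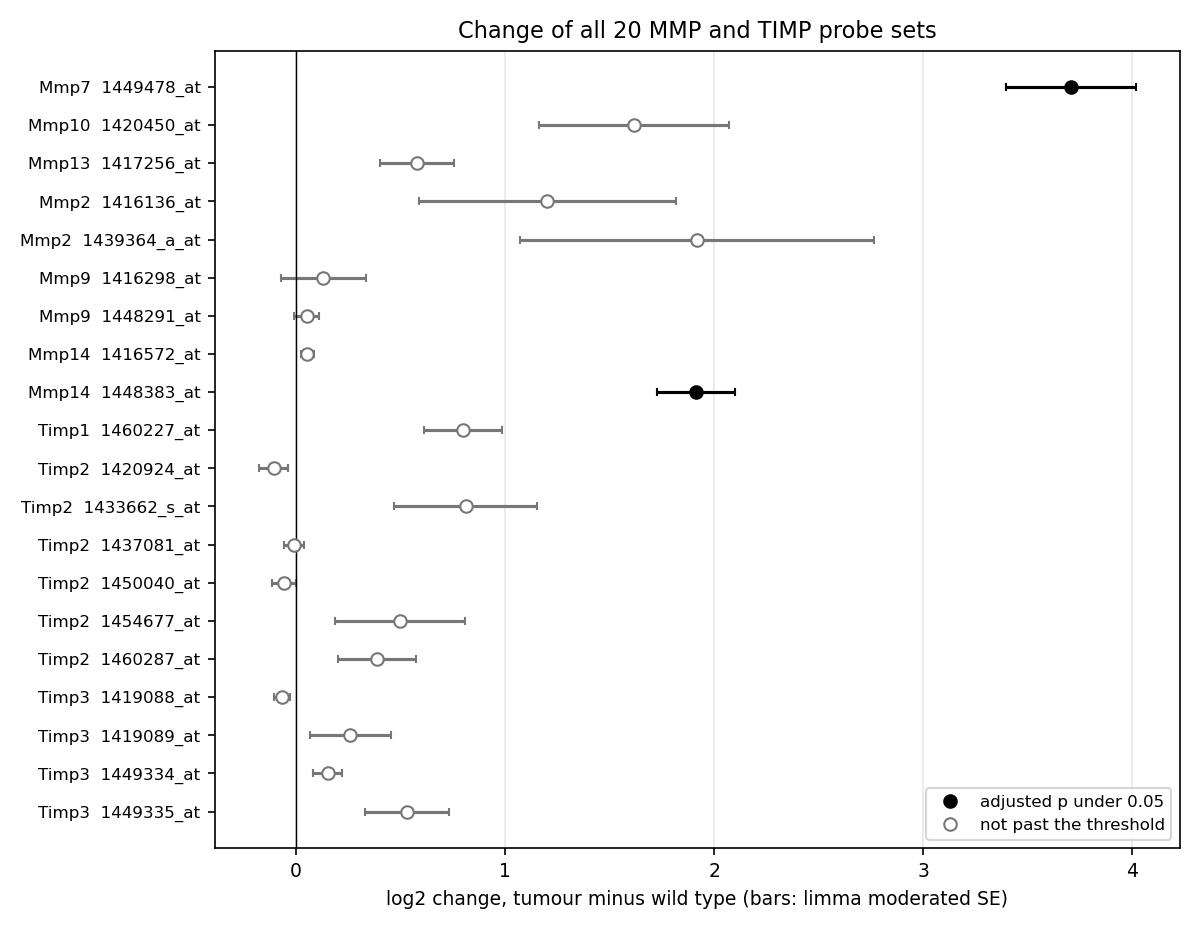
Log2 change, tumour minus wild type, of each of the 20 probe sets, with limma's moderated standard error as bars. Filled points passed an adjusted p of 0.05, which only Mmp7 (3.71) and 1 probe set of Mmp14 (1.91) did.

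Upstream sequences are shown because Mmp7, Mmp10 and Mmp13 lie on chromosome 9 and shared letter motifs near their starts, which Mmp14 lacked. Mmp7 and Mmp14 rose, while Mmp10 and Mmp13 did not pass the threshold. The sequences are the 250 bases before the RefSeq start of each gene in GRCm38.p6, 5′ to 3′. Capitals mark matches on either strand to AP-1 (TGANTCA), PEA3/ETS (AGGAAGT), TCF/LEF (CTTTGAT) or a TATA box (TATAAA), and no matches overlapped.
Mmp7, chr9:7691840-7692089, plus strand: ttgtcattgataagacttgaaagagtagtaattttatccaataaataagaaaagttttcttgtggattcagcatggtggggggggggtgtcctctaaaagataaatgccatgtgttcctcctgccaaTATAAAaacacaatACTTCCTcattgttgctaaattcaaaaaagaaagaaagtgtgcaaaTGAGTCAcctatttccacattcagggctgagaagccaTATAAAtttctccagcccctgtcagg
Mmp10, chr9:7502092-7502341, plus strand: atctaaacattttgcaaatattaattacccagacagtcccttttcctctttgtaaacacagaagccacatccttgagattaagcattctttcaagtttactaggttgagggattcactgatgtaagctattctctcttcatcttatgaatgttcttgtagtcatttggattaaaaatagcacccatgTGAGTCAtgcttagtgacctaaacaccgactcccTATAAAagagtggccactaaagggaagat
Mmp13, chr9:7272264-7272513, plus strand: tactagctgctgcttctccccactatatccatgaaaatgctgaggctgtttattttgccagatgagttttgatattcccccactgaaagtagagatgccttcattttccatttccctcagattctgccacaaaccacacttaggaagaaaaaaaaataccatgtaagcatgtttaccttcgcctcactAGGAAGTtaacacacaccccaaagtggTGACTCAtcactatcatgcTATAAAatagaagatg
Mmp14, chr14:54431348-54431597, plus strand: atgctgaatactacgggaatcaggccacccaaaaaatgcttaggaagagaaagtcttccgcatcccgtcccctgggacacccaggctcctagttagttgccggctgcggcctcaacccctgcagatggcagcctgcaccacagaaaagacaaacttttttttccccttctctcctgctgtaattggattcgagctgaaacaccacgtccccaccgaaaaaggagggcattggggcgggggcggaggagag

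AP-1 letters began 63 bases before the start in Mmp7, 63 in Mmp10 and 35 in Mmp13. Of 32536 RefSeq windows of the same length, 6.73% held these letters. A TATA box began 26, 29 and 16 bases before the start of Mmp7, Mmp10 and Mmp13, against 12.3% of all windows with one anywhere, and Mmp7 had another at 123 bases. PEA3/ETS letters stood in Mmp7 (109 bases, minus strand), Mmp13 (62 bases) and Timp1 (175 bases), and in 7.70% of all windows. TCF/LEF letters were in no window of the set except that of a further downstream RefSeq start of Mmp7, and in 3.21% of all windows. The windows of Mmp14, Mmp15, Timp2 and Timp3 held none of the 4 motifs. RefSeq's table matched 8 of the 10 genes, without Mmp2 and Mmp9. A match is a description of letters, and binding was not measured.

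Mmp7 encodes matrilysin, the smallest MMP, and had the largest change of the set. It is made by epithelial cells, in contrast to most MMPs. Its single probe set (1449478_at) read 11.80, 12.52 and 11.64 in tumours 16, 18 and 2, against 8.15 and 8.41 in wild types 36 and 62. All 3 tumours lay above both wild types, with a gap of 3.23 between the nearest values, and the ranges within groups were 0.89 and 0.26. The mean was 11.99 ± 0.47 in tumours (SD, n = 3) and 8.28 ± 0.18 in wild types (SD, n = 2), a change of 3.71 (SE 0.31, adjusted p = 0.00828 in limma) or 13.1-fold. The change was 3.44 to 3.88 when each array was left out. Without wild type 36 or wild type 62 the call was lost, with adjusted p = 0.0672 and 0.0740 in limma, where the lone wild type was assumed to vary like the tumours.

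Paneth cell markers were read beside Mmp7, since these cells are a known source of it. Genes of this and the other lists were counted by their brightest probe set. As a background for these counts, 1395 of 12393 genes were higher and 1300 lower by their brightest probe set. That fit adjusted p over genes. Of 5 measured markers, 1 rose and 0 fell, with a median change of 1.13. Lyz1, the lysozyme gene, rose by 1.13 in limma (adjusted p = 0.0281). Its other 2 probe sets rose too. Itln1, an intelectin gene, and Pla2g2a, a secreted phospholipase gene, had larger changes that did not pass, 1.93 (adjusted p = 0.0612 in limma) and 1.89 (adjusted p = 0.0523), with no overlap between the groups. The alpha-defensin gene Defa3 and the pentraxin gene Mptx1 lay below the 25th percentile on all 5 arrays. The mean level of the 5 was between 8.56 and 9.06 in tumours and between 7.60 and 7.95 in wild types. Their part in the level of Mmp7 was not tested.

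**Figure D2:**
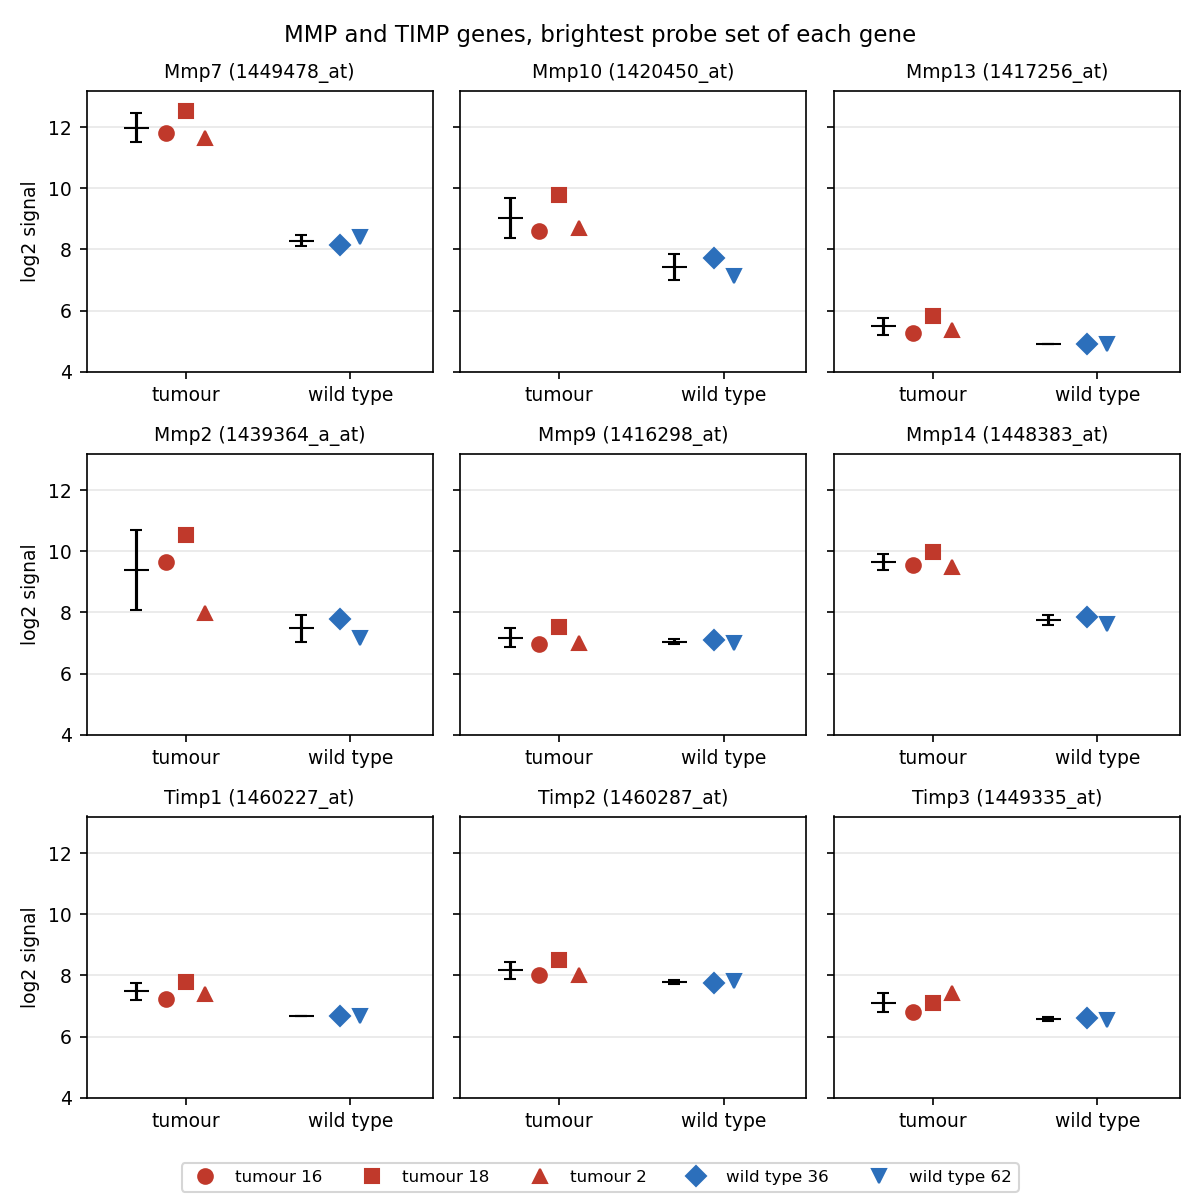
Log2 signal in each array (symbols) with group mean and SD (bars) for the brightest probe set of each of 9 genes, tumours left and wild types right. Mmp7 and Mmp14 show wide gaps between groups, Mmp2 in tumour 2 lies near the wild types, and Mmp9 overlaps; levels cannot be compared between panels.

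Mmp10 encodes stromelysin 2, an MMP that cleaves a broad range of matrix proteins and activates other MMP precursors. It read 8.61, 9.79 and 8.71 in tumours 16, 18 and 2, against 7.72 and 7.12 in wild types 36 and 62. The groups did not overlap, tumour 18 was the highest, and the wild types differed from each other by 0.60. The change of 1.62 (SE 0.45) did not pass, with an adjusted p of 0.0858 in limma. Leaving out each array gave 1.24 (without tumour 18) to 1.91 (without wild type 36), with no call.

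Mmp13 encodes collagenase 3, the main enzyme of fibrillar collagen breakdown in mice. Its probe set read 5.28, 5.81 and 5.38 in tumours 16, 18 and 2, against 4.90 and 4.92 in wild types 36 and 62. The groups did not overlap, but all 5 values lay below the 25th percentile of their array, so no fold is given. The change of 0.58 (SE 0.18) had an adjusted p of 0.105 in limma.

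Mmp2 and Mmp9 are the gelatinases, which cleave denatured collagen and basement membrane collagen. Mmp2 read 9.65, 10.55 and 7.97 in tumours 16, 18 and 2 in its brighter probe set (1439364_a_at), against 7.78 and 7.17 in wild types 36 and 62. Tumours 16 and 18 were high, while tumour 2 stood only 0.19 above the higher wild type, a gap smaller than that of 0.61 between the wild types. The change was 1.92 (SE 0.85, adjusted p = 0.213 in limma). The other probe set of Mmp2 (1416136_at) gave the same order of arrays, with 8.33, 9.16 and 7.25 in the tumours and 7.24 and 6.85 in the wild types, and a change of 1.20 (adjusted p = 0.270). Mmp2 thus had the widest spread among tumours of the set, with a range of 2.57 in the brighter probe set.

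The means of the fibroblast, macrophage and smooth muscle markers all had the same order of the 5 arrays as Mmp2. Each was highest in tumour 18, then tumour 16, tumour 2, wild type 36 and wild type 62. The share of all probe sets with this order was not computed. By brightest probe set the median change was 0.90 for fibroblast, 0.11 for macrophage and 0.14 for smooth muscle markers. The macrophage means were 7.62, 7.26, 7.25, 7.13 and 6.92 in that order, and the smooth muscle means were 7.19, 7.10, 7.03, 6.88 and 6.76. Macrophage means of tumours 16 and 2 were almost equal (7.256 and 7.254), while Mmp2 read 9.65 and 7.97 there. The endothelial, neutrophil, pan-leukocyte and Paneth cell means had other orders of the arrays. Of the 12 fibroblast markers, 1 rose (Dcn, the matrix proteoglycan decorin, by 2.60), 1 fell (Fbln1, the matrix protein fibulin 1, by 0.96) and 10 did not pass. Among these 10, Col3a1 and Col1a2 had changes of 2.32 each, while Col6a1 and Pdgfra differed by 0.86 and 0.093. Values of Col6a1 and Pdgfra overlapped between the groups, and Col6a1 read 8.24 in tumour 2 against 8.69 in wild type 36. The groups did not overlap in the brightest probe sets of 10 of the 12 markers, with Fbln1 lower in tumours. The collagen gene Col1a2 read 10.98, 11.93 and 9.30 in tumours 16, 18 and 2, against 8.61 and 8.23 in the wild types. In whole captured samples more cells of a type and more RNA per cell cannot be told apart, and the part of RNA from these cell types in the levels of Mmp2 was not tested.

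Mmp9 values overlapped between the groups in both of its probe sets. The brighter one (1416298_at) read 6.98, 7.54 and 7.01 in tumours 16, 18 and 2, against 7.10 and 6.98 in wild types 36 and 62. Only tumour 18 lay above the wild types. The change was 0.13 (SE 0.20, adjusted p = 0.697 in limma) and that of the other probe set 0.050 (adjusted p = 0.618). Mmp9 is a known product of neutrophils and macrophages. Of 10 neutrophil markers 1 rose, namely Lcn2, by 2.94, which epithelial cells make too, and of 10 macrophage markers 1 rose, the lipopolysaccharide receptor Cd14, by 0.94. The 9 other neutrophil markers did not pass, with changes between -0.14 (Elane, neutrophil elastase) and 1.32 (S100a8, a calprotectin subunit). Ltf, the lactoferrin gene, differed by 0.82 and S100a9, the other calprotectin subunit, by 0.45. The mean level of the 10 neutrophil markers was 6.98 to 7.36 in tumours and 6.57 to 6.65 in wild types, while their median change was -0.013. The part of neutrophil RNA in the levels of Mmp9 was not tested.

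Mmp14 encodes the membrane-anchored MT1-MMP, which cleaves collagen at the cell surface and activates Mmp2. The brighter of its probe sets (1448383_at) read 9.54, 9.96 and 9.47 in tumours 16, 18 and 2, against 7.87 and 7.62 in wild types 36 and 62. All tumours lay above both wild types, with a gap of 1.61 and with tumour 2 close to tumour 16, unlike in Mmp2. Its mean was 9.66 ± 0.26 in tumours (SD, n = 3) and 7.75 ± 0.17 in wild types (SD, n = 2), a change of 1.91 (SE 0.19, adjusted p = 0.0107 in limma) or 3.76-fold. The other probe set (1416572_at) did not show it.

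That second probe set of Mmp14 lay close to the 25th percentile on every array, with 6.05, 6.08 and 6.05 in tumours 16, 18 and 2 and 5.99 and 6.02 in wild types 36 and 62. Its change was 0.054 (adjusted p = 0.322 in limma), and the mean of both probe sets changed by 0.98 (adjusted p = 0.00808 in limma over genes). Leaving out tumour 16 ended the call of the brighter one (adjusted p = 0.0565 in limma), as did leaving out wild type 36 (0.0669) or wild type 62 (0.0845), with changes of 1.76 to 2.03 over the 5 fits.

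**Figure D3:**
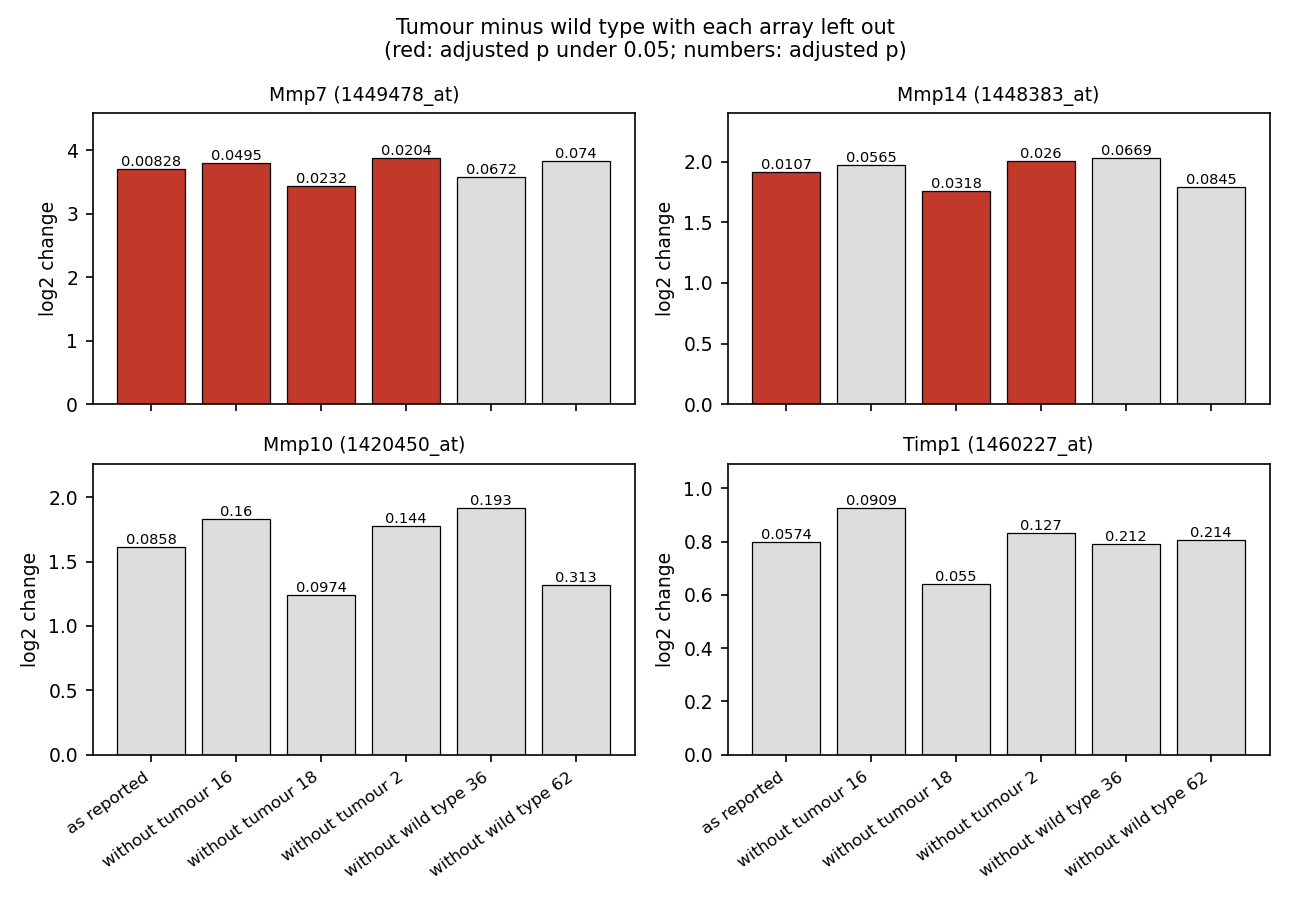
Log2 change, tumour minus wild type, of Mmp7, Mmp14, Mmp10 and Timp1 with all arrays and with each array left out, with limma's adjusted p above each bar. The size of the change of Mmp7 stayed between 3.44 and 3.88, while its call and that of Mmp14 were lost without either wild type.

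Timp1 encodes a secreted inhibitor of most MMPs that is also induced in inflamed and injured tissue. It read 7.22, 7.80 and 7.41 in tumours 16, 18 and 2, against 6.67 and 6.69 in wild types 36 and 62. The groups did not overlap, and the wild types differed by 0.017. The change of 0.80 (SE 0.19, 1.74-fold) missed the threshold with an adjusted p of 0.0574 in limma. It passed with quantile normalization (0.0382) and with probe sets tied within a group left out (0.0347), and with all other settings kept no fit that left out 1 array passed (0.0550 to 0.214).

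Timp2 was covered by 6 probe sets that differed among themselves, and none passed. The brightest (1460287_at) read 8.00, 8.50 and 8.00 in tumours 16, 18 and 2, against 7.74 and 7.82 in wild types 36 and 62. Its groups did not overlap, with a gap of 0.18 and a change of 0.39 (SE 0.18, adjusted p = 0.243 in limma). The largest change was that of 1433662_s_at, at 0.81 (SE 0.34, adjusted p = 0.198), where tumour 18 read 8.69 and tumours 16 and 2 read 7.83 and 7.70. Another, 1454677_at, differed by 0.50 (adjusted p = 0.348). In these 3 probe sets tumour 18 was the highest array, as it was for Mmp2. The other 3 had changes between -0.11 and -0.0096 with adjusted p of 0.362 to 0.913 in limma, and their values overlapped or touched between the groups.

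Timp3 encodes the inhibitor that binds to the matrix and also blocks the sheddase Adam17. Its brightest probe set (1449335_at) read 6.79, 7.11 and 7.41 in tumours 16, 18 and 2, against 6.62 and 6.53 in wild types 36 and 62. Here tumour 2 was the highest, in contrast to the other genes of the set. The change was 0.53 (SE 0.20, adjusted p = 0.156 in limma). The remaining 3 probe sets differed by 0.26, 0.15 and -0.067 (adjusted p = 0.415, 0.240 and 0.323), and the last was the 1 probe set of the 20 with every tumour below both wild types.

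Tumour 18 was the highest of the 3 tumours in 14 of the 20 probe sets (70.0%), tumour 2 in 2 and tumour 16 in 0, with ties in 4. Over all probe sets tumour 18 was the highest in 31.4%, tumour 2 in 30% and tumour 16 in 23.0%. Probe sets of a gene are not independent, and these shares carry no test. Tumour 18 also had the highest mean of the 3 tumours in all 7 marker lists apart from the epithelial one (fibroblast, smooth muscle, endothelial, macrophage, neutrophil, pan-leukocyte and Paneth cell). Of the lists read below, it was also highest for further MMP and TIMP genes, ADAM and ADAMTS genes, proteins that MMPs cleave and transcription factors. The plasminogen system list was highest in tumour 2. The array median of tumour 18 was 6.87, against 6.85 and 6.84 in tumours 16 and 2. The general epithelial marker list ran the other way, with a mean of 11.28 in tumour 18, against 11.44 in tumour 16 and 11.71 in tumour 2. Paneth cells are epithelial as well, and the part of cell composition in these orders was not tested.

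**Figure D4:**
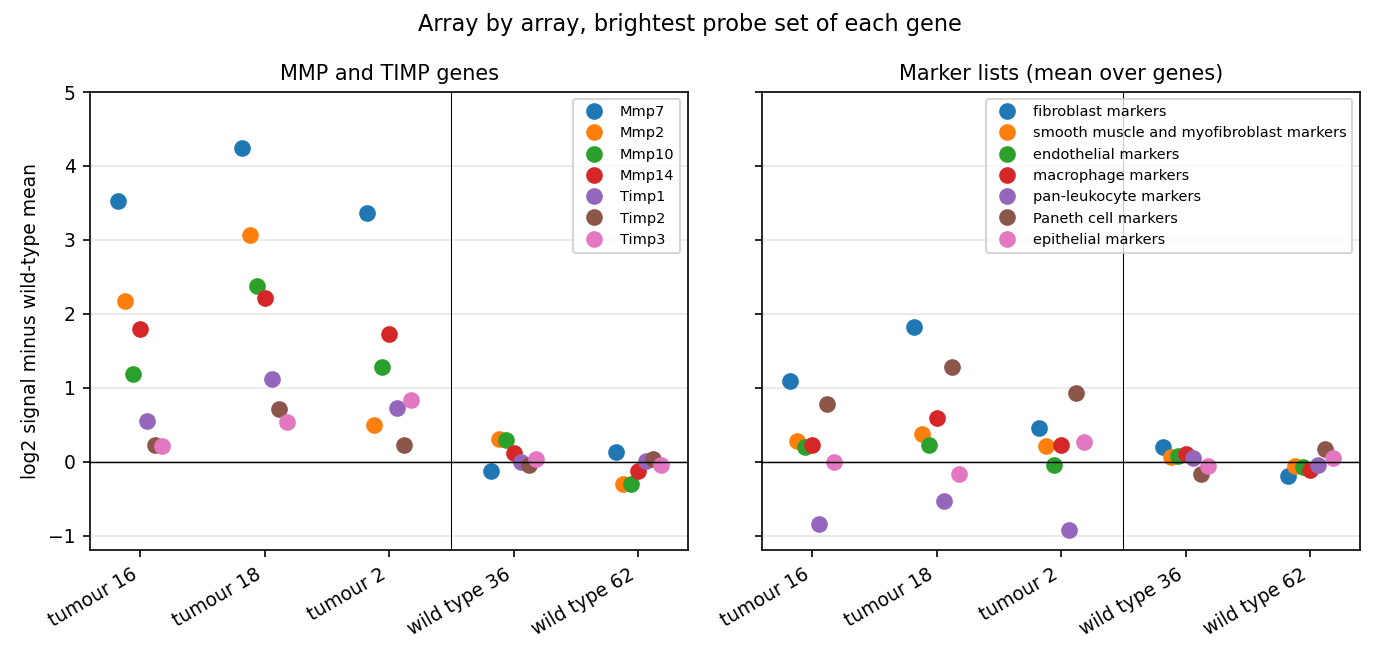
Log2 signal minus the wild-type mean in each array, for the brightest probe set of 7 genes (left) and for the mean of marker lists (right). Mmp2 and the fibroblast markers are both highest in tumour 18 and lowest among tumours in tumour 2, while Mmp7 is 3.36 or more above the wild-type mean in all 3 tumours.

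By pattern over the 5 arrays, the genes most like Mmp7 were Igfbp4, which encodes an insulin-like growth factor binding protein, the hyaluronan receptor gene Cd44 and the choline transporter-like gene Slc44a2. Likeness was the root mean square difference between log2 values, each minus its own mean over the arrays, and was 0.14, 0.24 and 0.27. Igfbp4 read 10.42, 10.99 and 9.89 in tumours 16, 18 and 2, against 6.59 and 6.68 in the wild types, and Cd44 had 10.40, 10.44 and 9.98 against 6.61 and 6.56. The patterns closest to Mmp14 were those of the stem and progenitor cell marker Prom1 (0.077), the neutral amino acid transporter gene Slc1a4 (0.083) and Cdca5, which encodes sororin, a cohesin cofactor (0.10). Prom1 rose by 1.83, Slc1a4 by 1.88 and Cdca5 by 1.99. All 6 passed the threshold themselves, and with 5 arrays such likeness is a description only.

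The rest of the MMP and TIMP family was measured in part. Of 14 further measured genes (19 probe sets), 0 passed in either direction in limma, and 0 probe sets had an unadjusted p under 0.05, although 18.3% of all probe sets passed. Their median change was -0.0061 over probe sets. The 2 brightest, the membrane-anchored MMP genes Mmp24 and Mmp23, differed by -0.015 and -0.056. Mmp3 and Mmp12, the stromelysin 1 and macrophage elastase genes, differed by 0.031 and 0.0092. They were among 5 of the 14 genes that lay below the 25th percentile on all 5 arrays.

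The ADAM and ADAMTS families are related metalloproteases. Of 12 measured genes, 2 rose and 0 fell, with a median of 0.048. Adam9, a membrane-anchored sheddase, rose by 0.55 (adjusted p = 0.0193 in limma) and the aggrecanase-like gene Adamts1 by 0.21 (adjusted p = 0.0329). Adamts1 was dim, at percentile 29.2 or below on every array, and its values in tumours 16 and 2 were tied. The sheddase genes Adam10 and Adam17 differed by 0.0049 and 0.077 without a call.

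Among 15 genes of the plasminogen system and of MMP-activating proteases, 1 rose, 1 fell and 13 did not pass by their brightest probe set, with a median of 0.049. Klk1, a tissue kallikrein gene, is among the 13, since its brightest probe set differed by 0.43 (adjusted p = 0.151 in limma). Its other 2 probe sets rose, by 1.47 (adjusted p = 0.0472) and 1.61 (adjusted p = 0.0337). Plat, the tissue plasminogen activator, read 8.29, 9.17 and 9.10 in tumours 16, 18 and 2, against 7.30 and 6.96 in the wild types, and rose by 1.72 (adjusted p = 0.0369 in limma). Pcsk5, a proprotein convertase, fell by 1.61 (adjusted p = 0.0381) in its brightest probe set. Furin, the convertase that activates Mmp14, differed by 0.25 (adjusted p = 0.0676). The urokinase gene Plau differed by 0.063 and its receptor Plaur by 0.30, and neither passed.

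Genes of proteins that MMPs are known to cleave or bind were also read. Of 18 measured genes, 5 rose, 1 fell and 12 did not pass, with a median of 0.94. Over all genes by brightest probe set, 1395 of 12393 were higher and 1300 lower. Cd44, a hyaluronan receptor that holds Mmp7 at the cell surface, rose by 3.69 (adjusted p = 0.00485 in limma), and its other probe set by 0.83 (adjusted p = 0.0128). The heparan sulphate proteoglycan Sdc1, which Mmp7 sheds in mice, rose by 1.44, the laminin subunit Lama3 by 1.75, the tetraspanin Cd9 by 1.38 and the growth factor Hbegf by 0.91. Bsg, known as an inducer of MMPs, fell by 0.66 (adjusted p = 0.0188). E-cadherin (Cdh1) differed by 0.26 without a call. The basement membrane collagen genes Col4a1 and Col4a2 had changes of 2.49 and 1.65 that did not pass, and both were highest in tumour 18.

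Of 17 measured transcription factor genes known to act on MMP promoters, 1 rose and 16 did not pass by their brightest probe set, with a median of 0.20. Runx1, a Runt domain factor, is among the 16 with a brightest probe set that differed by 0.36 (adjusted p = 0.0549 in limma). Of its 4 other probe sets, 1 rose, by 0.92 (adjusted p = 0.0182). Rela, an NF-kappaB subunit, rose by 0.56 (adjusted p = 0.0321 in limma). The AP-1 genes Fosl1 and Jun differed by 0.46 (adjusted p = 0.0674) and 0.65 (adjusted p = 0.153), and Fos and Junb by 0.28 and -0.11. Etv4, which encodes PEA3, differed by 0.20 (adjusted p = 0.0959), and Lef1 and Ctnnb1 by 0.18 and -0.029.

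Markers of other cell types moved in different directions. Pan-leukocyte markers had 3 of 6 lower and 0 higher, and on the log2 scale Ptprc, the common leukocyte phosphatase, fell by 1.94. The T cell receptor subunit Cd3g fell by 1.41 and the actin regulator Coro1a fell by 0.71. Their mean level was 6.53 to 6.92 in tumours and 7.40 to 7.50 in wild types. Of 8 endothelial markers 0 passed in limma, with 1 probe set at an unadjusted p under 0.05, and 3 of the 8 lay below the 25th percentile on all 5 arrays. The 2 brightest, Kdr and Esam, differed by -0.00057 and 0.14. Of 6 smooth muscle and myofibroblast markers 1 rose, the actin gene Acta2, by 1.22, and the mean level was 7.03 to 7.19 in tumours and 6.76 to 6.88 in wild types. The dimmer probe set of Acta2, at percentile 12.2 or below on every array, differed by -0.0056. Their part in the MMP and TIMP levels was not tested.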

How the data were processed

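RNA of laser-captured epithelium was biotin-labelled with Affymetrix's protocol for small samples, per the labels' protocols. The 5 arrays came as 1 deposited table of 22690 probe sets on a log2 scale, made with the R package affy, per the submitters' processing notes. The background correction, summary and normalization steps are not given in the sources used here. Values ran between 3.38 and 14.3, which fits log2. No probe set is classed as detected, since presence calls were not analysed here.

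Groups follow the labels' titles. Affymetrix controls (64 probe sets) were left out. Genes were named from GEO's platform annotation, with symbols checked through Entrez identifiers against RefSeq (0 updates), and 20380 of 22626 probe sets had 1 symbol. The array names no genome build, so the promoter windows are RefSeq's and were not tied to probes. Values of the same probe set were tied in all 3 tumours for 1042 probe sets, in both wild types for 1716 and on all 5 arrays for 164, which lowers the spread estimated for those probe sets.

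Limma 3.58.1 (R 4.3.3) gave the tests, with lmFit and default eBayes on a 2-group model (3 residual and 1.19 prior degrees of freedom), two-sided, with Benjamini-Hochberg adjustment over all 22626 probe sets. The steps were tested on simulated data. A single value over these 5 arrays cannot reach an exact two-sided permutation p below 0.1. Statmod 1.5.0 served array weights.

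The members, gene lists, motifs and tests were chosen with earlier results of these data known. Named were all members, up to 4 called genes a list in each direction by the brightest probe set (or the 2 brightest where none was called), defining markers, and the 3 nearest patterns of each called member. List genes named outside this rule were chosen after their values were seen. They are Hbegf, Mmp3, Mmp12, Adam10, Adam17, Furin, Plau, Plaur, Cdh1, Col4a1, Col4a2, Fosl1, Jun, Fos, Junb, Etv4, Lef1, Ctnnb1, Klk1, Runx1, Col3a1, Col1a2, Col6a1, Pdgfra, S100a8, S100a9, Ltf, Elane, Itln1, Pla2g2a, Defa3 and Mptx1. Lists were described by counts and medians without a set test. Alternatives were other scalings, filters, variance models, gene-level summaries, a 2-fold minimum and leaving out each array.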

Additional observations from a re-analysis of the deposited data

How the results depend on the processing

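Of 365 values of member probe sets under 15 alternatives and 5 added after the data were seen (each array left out together with tied probe sets), 337 kept direction and side of the threshold, 6 lost a call, 14 gained one and 8 changed sign. The calls of Mmp7 and Mmp14 were lost only in fits that left out an array. No paired analysis was possible because the groups share no replicate number. Member probe sets called higher numbered 2 as reported and 0 to 2 with 1 array left out. They numbered 0 without wild type 36 or 62, where 3 member probe sets had an unadjusted p under 0.05 in limma. With tied probe sets also left out they were 1 to 6, with 4 without tumour 16 or tumour 2. Over all probe sets 2167 were higher and 1972 lower as reported. The counts were 1024 and 1200 without probe sets of shared targets, 1395 and 1300 with the brightest probe set a gene, and 677 and 816 with a 2-fold minimum. With 1 array left out they were 0 to 1875 and 0 to 1549, with 0 calls and 6682 unadjusted p under 0.05 without wild type 62. With tied probe sets also left out they were 707 to 2833 and 718 to 2333, with 912 higher without wild type 36. Sign changes were confined to 3 probe sets with small changes. Mmp9 gave -0.051 without tumour 18 (1416298_at) and -0.030 without wild type 62 (1448291_at), each with and without tied probe sets, against up to 0.23 and 0.13 without other arrays. Timp2 (1437081_at) gave 0.0057 with array weights, 0.021 without tumour 2 and 0.025 without wild type 36, and -0.044 without wild type 62. Timp1 passed in 6 of the 15 alternatives. Among the lists, fibroblast probe sets called higher ranged over 0 to 10 (1 as reported) and those of proteins that MMPs cleave over 0 to 14 (9 as reported), with the highest counts without tumour 2 and tied probe sets. The cause of these shifts was not tested. Signal over background could not be assessed.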

Other observations

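The nearest patterns of members that did not pass were looked up after their values were seen. Mmp2 was closest to the collagen gene Col1a2 (root mean square difference 0.21), the gap junction gene Gja1 (0.25) and the galectin gene Lgals1 (0.26). None of these 3 genes passed the threshold, with changes of 2.32, 2.01 and 2.17. Lgals1 read 8.89, 9.61 and 7.70 in tumours 16, 18 and 2, against 6.94 and 6.19 in the wild types. Mmp10 was closest to Ltbp3, a binding protein of latent TGF-beta, at 0.13, and Timp1 to Cmtm7 at 0.041. Timp3, whose highest tumour was tumour 2, was closest to Ndrg1, a stress-responsive gene, at 0.021, and Ndrg1 read 6.84, 7.18 and 7.50 in tumours 16, 18 and 2, against 6.71 and 6.57 in the wild types.

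Mmp2 passed the threshold when tumour 2 and tied probe sets were both left out, with changes of 2.62 (adjusted p = 0.0136 in limma) and 1.70 (adjusted p = 0.0259) in its 2 probe sets. Over all alternatives its adjusted p ran up to 0.522 and 0.592. Under the same setting 10 fibroblast probe sets were called higher, against 1 with all arrays.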
